A study of Mus musculus with 2 samples.

Results

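The genes described here are 30 members of the early transcriptional response to stimulation and stress, out of 27998 genes in the count tables of mouse ear skin. They were chosen by name: 21 are immediate-early genes and 9 encode heat-shock proteins. Skin was taken from control mice and from mice with allergic contact dermatitis (ACD) elicited by 2,4-dinitrofluorobenzene (DNFB), a hapten that binds skin proteins and primes T cells, and each condition was sequenced as 1 droplet library of single cells. Both groups were ICR mice aged 7 to 8 weeks. In the ACD group, whose mice were male per the methods, 1.0% DNFB was painted on the back, 0.2% DNFB was painted on the ears 6 days later, and the ears were collected 60 hours after that. How the control ears were treated and how many animals entered each library are not given in the sources used here. In both groups the tissue was minced and digested with collagenase D and DNase before dead cells were removed, so RNA made in the skin and RNA made during digestion cannot be told apart.

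Immediate-early genes are switched on within minutes of a stimulus, without new protein synthesis, and many encode transcription factors whose own mRNA is short-lived. Heat-shock genes encode chaperones that hold or refold proteins, and the heat-inducible ones among them are driven by heat-shock factor when proteins misfold. In skin both programs answer wounding, inflammation and heat, and both are known to be raised while tissue is being digested into single cells, which is why they are often read as marks of dissociation stress.

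The control library held 12895 barcodes and 99037698 UMIs (unique molecular identifiers, each standing for 1 captured mRNA), and the ACD library 13163 barcodes and 126566870 UMIs. After a filter on genes, UMIs and mitochondrial share, 12213 and 11665 cells remained, with medians of 6850.0 and 7447 UMIs per cell. The libraries shared 47 cell barcodes after the filter, of which 5 fell in the same class in both. Cells were assigned to 24 classes by marker genes, none of which is a member, and each class is named after its gate as cells like that type. Cells carrying markers of unlike classes were set aside as mixed (12.5% and 10.7%), and 13.0% and 15.3% passed no gate. In 16 classes at least 20 cells were present in each library, and only there were ratios taken. Levels are UMIs per 1000000 UMIs of a class (CPM), ratios are log2 of ACD over control, and a member was called in a class when it differed at least 2-fold on at least 50 UMIs over both libraries. With 1 library per condition there is no replicate and no test. The 95% intervals given after each ratio cover counting error only, not the spread between cells or between animals.

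The stretch before the transcription start is shown for 4 members because the results below turn on them and because it holds short motifs that are counted below. The sequences are the 250 bases before the RefSeq start (GRCm38.p6), 5′ to 3′ on the strand of the gene. Capitals mark TGACG or its reverse complement CGTCA, the 5-letter core of the cyclic AMP response element, in *Fos*, and the heat-shock element pairs GAANNTTC and TTCNNGAA in the others.
Fos (chr12:85473640-85473889, plus strand): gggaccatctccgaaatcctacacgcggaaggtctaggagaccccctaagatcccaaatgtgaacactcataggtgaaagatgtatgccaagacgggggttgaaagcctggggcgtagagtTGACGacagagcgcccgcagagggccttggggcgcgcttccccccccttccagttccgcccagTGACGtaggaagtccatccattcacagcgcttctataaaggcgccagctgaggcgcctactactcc
Hspa1a (chr17:34972157-34972406, minus strand): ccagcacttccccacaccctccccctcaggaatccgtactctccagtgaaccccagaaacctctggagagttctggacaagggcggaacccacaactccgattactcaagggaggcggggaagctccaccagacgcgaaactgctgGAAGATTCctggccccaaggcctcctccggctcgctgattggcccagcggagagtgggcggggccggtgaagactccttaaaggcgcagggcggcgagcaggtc
Hspa1b (chr17:34959239-34959488, minus strand): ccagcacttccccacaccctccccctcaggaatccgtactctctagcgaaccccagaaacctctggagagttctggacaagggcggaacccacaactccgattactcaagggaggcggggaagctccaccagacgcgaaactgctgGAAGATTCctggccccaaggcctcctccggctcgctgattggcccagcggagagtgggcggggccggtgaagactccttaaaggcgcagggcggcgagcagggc
Hspb1 (chr5:135887669-135887918, plus strand): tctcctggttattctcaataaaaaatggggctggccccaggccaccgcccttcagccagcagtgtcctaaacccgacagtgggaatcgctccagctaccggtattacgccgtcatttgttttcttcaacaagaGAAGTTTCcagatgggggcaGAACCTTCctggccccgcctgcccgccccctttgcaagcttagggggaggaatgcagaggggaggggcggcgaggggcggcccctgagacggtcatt

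*Fos* held the response element core 2 times, beginning 129 and 66 bases before the start. *Hspa1a* and *Hspa1b* each held 1 heat-shock pair beginning 104 bases before the start, and their stretches were identical at 247 of 250 positions. *Hspb1* held 2 heat-shock pairs, beginning 117 and 97 bases before the start. RefSeq stretches were matched for 24 of the 30 members, those without one being *Egr1*, *Ier2*, *Myc*, *Hspa8*, *Hsp90aa1* and *Hsp90ab1*. Either heat-shock pair, on either strand, was found in 5 of 6 matched heat-shock members (*Hspa1a*, *Hspa1b*, *Hspb1*, *Hsph1* and *Hspe1*), in 2 of 18 matched immediate-early members (*Jun* and *Egr2*) and in 12.8% of the 32851 stretches in the table. The response element core was found in 10 of 18 immediate-early and 3 of 6 heat-shock members, against 17.8% of all stretches. The CArG box, the site of serum response factor, was found in 2 immediate-early members (*Egr2* and *Zfp36*) and 0 heat-shock members, against 1.47% of all. Members with several RefSeq starts, such as *Egr2*, were counted if any of their stretches matched. The percentages are over single stretches, so the comparison is not like for like. A match describes these letters and is not evidence of a bound site.

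Over all cells kept, immediate-early transcripts took a smaller part of the ACD library and heat-shock transcripts a larger one. The summed level of the 21 immediate-early genes was 31509.6 CPM in control and 26644 in ACD (log2 ratio -0.24, -0.24 to -0.24), and that of the 9 heat-shock genes was 6963 and 8919.6 (0.36, 0.35 to 0.36). The ACD library also held more lymphocytes and fewer fibroblasts and chondrocytes, for example 627 CD4 T-like cells against 35 in control. When the ACD levels of each class were weighted by the share of UMIs each class had in control, with mixed and ungated cells as classes of their own, the immediate-early level was 31787 (log2 ratio 0.01) and the heat-shock level 9194 (0.40). At equal class shares the immediate-early levels of the libraries were thus close, and the heat-shock levels were not. By gene, 18 of 21 immediate-early members lay below 0 over all cells and 7 at the class shares of control, with *Fosb* (-0.61 and -0.35) and *Klf4* (-0.66 and -0.29) lowest both ways. All 9 heat-shock members lay above 0 both ways, from *Hsp90ab1* (0.22 and 0.09) to *Hsph1* (0.60 and 0.44) and *Hspa1a* (0.51 and 0.74).

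**Figure D1:**
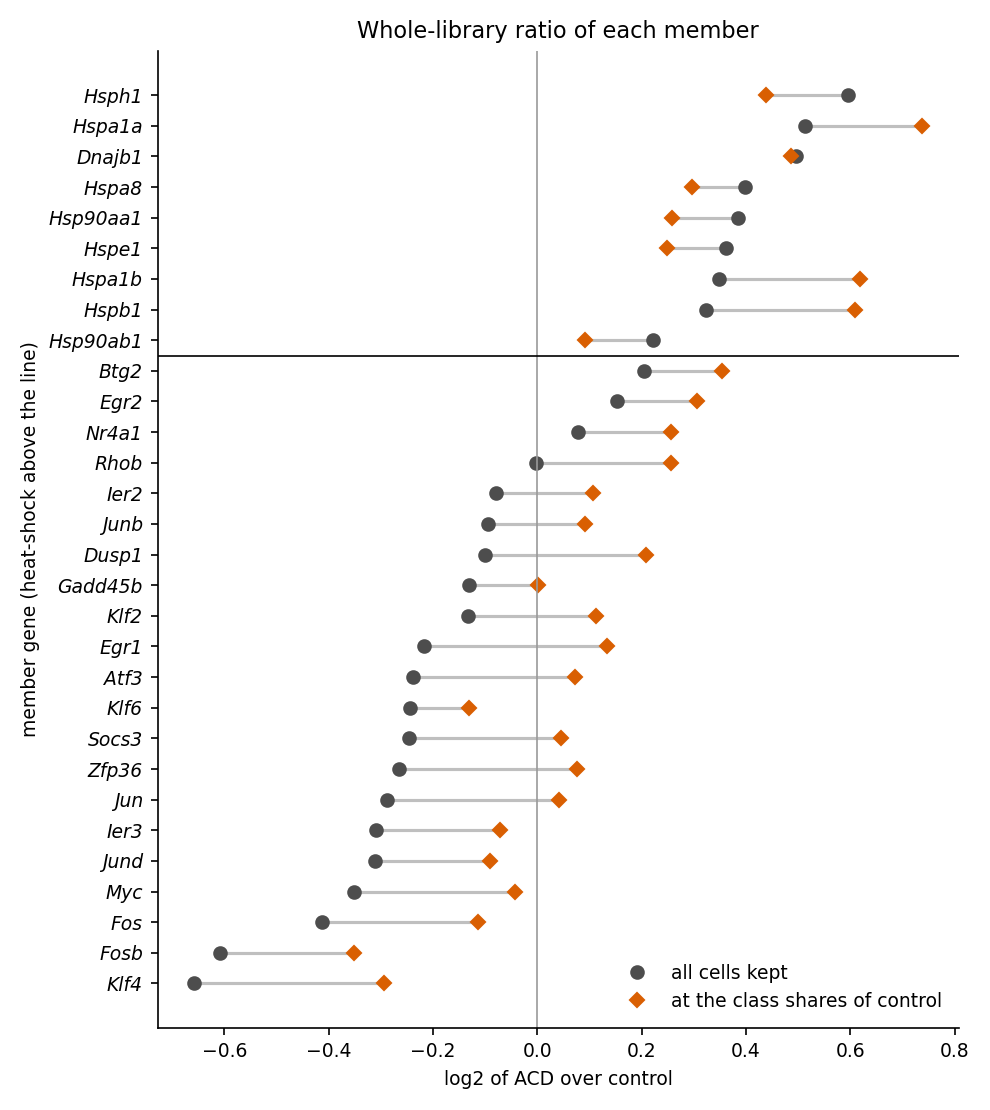
Log2 ratio of ACD over control (x axis) of each of the 30 members (y axis, heat-shock genes above the line), over all cells kept (circles) and with the ACD classes weighted as in control (diamonds). Immediate-early diamonds lie to the right of their circles and 14 of 21 lie above 0, and all 9 heat-shock genes lie above 0 by both measures.

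Within classes, the summed immediate-early level was lowest relative to control in Langerhans-like cells, followed by endothelial-like cells. Vascular smooth muscle-like, CD4 T-like, dendritic epidermal T-like and pericyte-like cells came next, with intervals that partly overlapped. In Langerhans-like cells, the antigen-presenting cells of the epidermis, it was 23132 and 13049 CPM in control and ACD (log2 ratio -0.83, -0.88 to -0.78). In endothelial-like cells, which had the highest sum in control, it was 44218 and 28909 (-0.61, -0.63 to -0.59), in vascular smooth muscle-like cells 25796 and 18257 (-0.50, -0.52 to -0.48) and in pericyte-like cells 27494 and 20279.5 (-0.44, -0.46 to -0.41). Dendritic epidermal T-like cells, the gamma delta T cells resident in mouse epidermis, had 18978 and 13876 (-0.45, -0.50 to -0.41), and CD4 T-like cells 10017 and 7301 (-0.46, -0.52 to -0.39). The most numerous classes scarcely differed: 28791 and 29756 in dermal fibroblast-like cells (0.05, 0.04 to 0.05) and 38383 and 40717 in chondrocyte-like cells (0.09, 0.08 to 0.09), the cartilage cells of the ear. Schwann and glia-like cells went the other way (20301 and 25461, 0.33, 0.30 to 0.35), and so did erythrocyte-like cells, which had the lowest sums of any class (3342 and 5385, 0.69, 0.60 to 0.78). Most erythrocyte-like cells held few of these UMIs, as given with the spread over cells. No sum differed 2-fold. With the cell richest in each gene left out of each class and library, the ratio was -0.68 in Langerhans-like, -0.62 in endothelial-like and -0.25 in CD4 T-like cells. In the classes with the lowest ratios cells were deeper in ACD, with medians of 6835 and 13814 UMIs in Langerhans-like and 4362 and 7984 in pericyte-like cells, and values at equal depth are given with the spread over cells.

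The summed heat-shock level was above control in 14 of 16 classes. It was 6862 and 9346 in dermal fibroblast-like cells (log2 ratio 0.45, 0.43 to 0.46), 6832 and 8995 in chondrocyte-like cells (0.40, 0.39 to 0.41) and 12309 and 17403 in muscle satellite-like cells, the stem cells of muscle (0.50, 0.44 to 0.56), which had the highest sum in ACD. Dermal gamma delta T-like cells, the source of interleukin 17 in mouse dermis, had 4993 and 6850.1 (0.46, 0.41 to 0.51), and T-like cells of no gated subset had 5284 and 7731 (0.55, 0.51 to 0.59). The intervals of 3 classes included 0: Langerhans-like cells (0.04, -0.02 to 0.10), CD4 T-like cells (-0.05, -0.12 to 0.02) and dendritic epidermal T-like cells (-0.05, -0.10 to 0.01). With the cell richest in each gene left out of each class and library, the ratios of these classes were 0.03, 0.35 and -0.06. The CD4 T-like value thus depended on single cells. Without the near-identical genes *Hspa1a* and *Hspa1b*, the summed ratio was close to 0 in pericyte-like (-0.01), vascular smooth muscle-like (0.002), endothelial-like (0.06) and Schwann and glia-like cells (0.06). The interval of that smaller sum lay above 0 in 13 classes and below 0 in 0. In each of the 16 classes the immediate-early ratio was below the heat-shock ratio, by least in Schwann and glia-like and erythrocyte-like cells. The intervals of the 2 ratios overlapped in Schwann and glia-like cells (0.33, 0.30 to 0.35, and 0.34, 0.29 to 0.39). They also overlapped in erythrocyte-like cells (0.69, 0.60 to 0.78, and 0.76, 0.59 to 0.93). Without *Hspa1a* and *Hspa1b* the order was reversed in Schwann and glia-like (0.33 and 0.06) and erythrocyte-like cells (0.69 and 0.67). It held in the other classes.

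**Figure D2:**
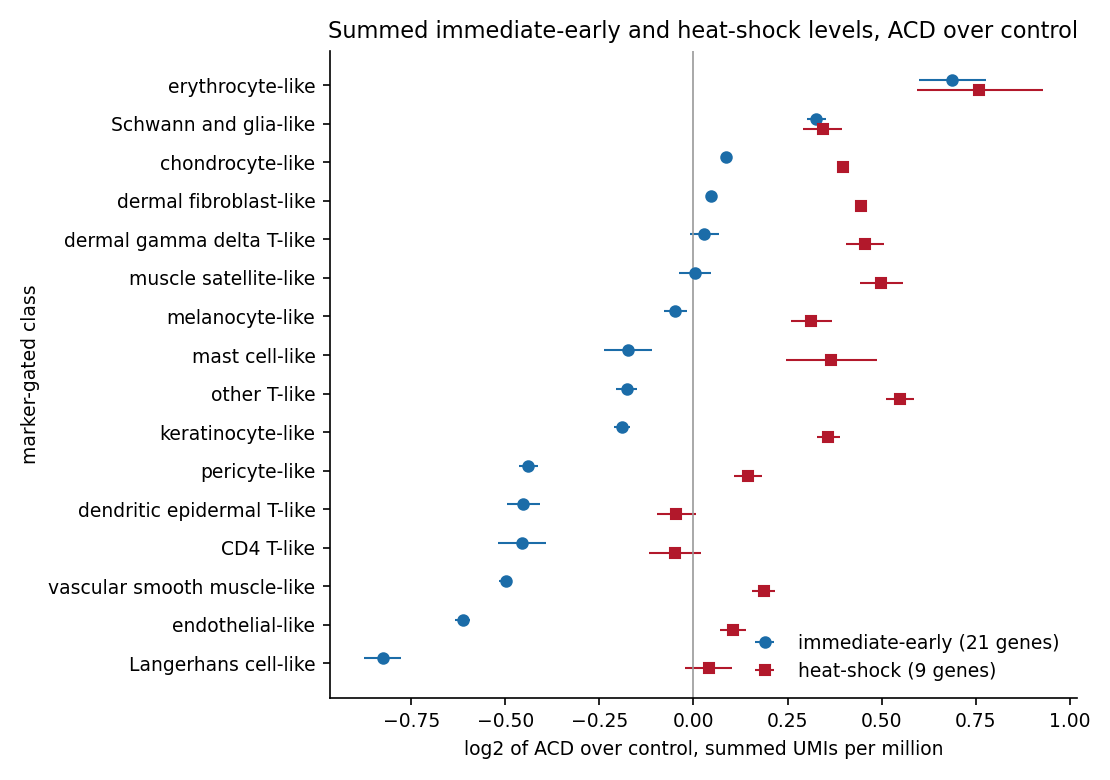
Log2 ratio of ACD over control of the summed immediate-early level (circles) and the summed heat-shock level (squares) in each class, with 95% counting intervals as bars. Circles run from -0.83 in Langerhans-like to 0.69 in erythrocyte-like cells and lie to the left of the squares in every class.

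Taken member by member, 318 pairs of an immediate-early gene and a class and 138 pairs of a heat-shock gene and a class had enough UMIs, out of 480 pairs. Of the immediate-early pairs, 20 (6.29%) were at least 2-fold lower in ACD, where 2.19% of the 90701 pairs over all genes tested were, and 9 (2.83%) were at least 2-fold higher, where 3.30% were. Of the heat-shock pairs, 16 (11.6%) were at least 2-fold higher and 3 (2.17%) at least 2-fold lower. The median log2 ratio was -0.11 over immediate-early pairs, 0.29 over heat-shock pairs and -0.05 over all pairs tested. The immediate-early median of a class was below 0 in 12 of 16 classes and the heat-shock median in 0 of 16. With *Hspa1a* and *Hspa1b* left out, the heat-shock median was below 0 in 2 classes. The lower immediate-early calls were concentrated in few classes: 10 of 18 members in Langerhans-like cells (all genes tested, 5.03%), 5 of 21 in CD4 T-like cells (5.28%), 2 of 20 in pericyte-like cells (2.62%) and 1 of 20 in endothelial-like cells (2.78%). Higher calls in erythrocyte-like cells came to 5 of 18 immediate-early and 3 of 6 heat-shock members in a class where 14.0% of all genes tested were called higher. In T-like cells of no gated subset they came to 2 of 21 and 3 of 9, against 4.53% of all genes tested. Langerhans-like, CD4 T-like and erythrocyte-like cells had fewer than 50 cells in a library, and without these classes 5 immediate-early pairs were lower and 4 higher. In the remaining classes 0.397% (Schwann and glia-like) to 4.12% (dendritic epidermal T-like) of all genes tested were lower. Those higher ran from 1.52% (chondrocyte-like) to 4.53% (T-like cells of no gated subset). The excess of lower immediate-early pairs over all genes thus rested mainly on Langerhans-like and CD4 T-like cells. With every cell thinned to 2000 UMIs, 11 were lower and 5 higher.

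**Figure D3:**
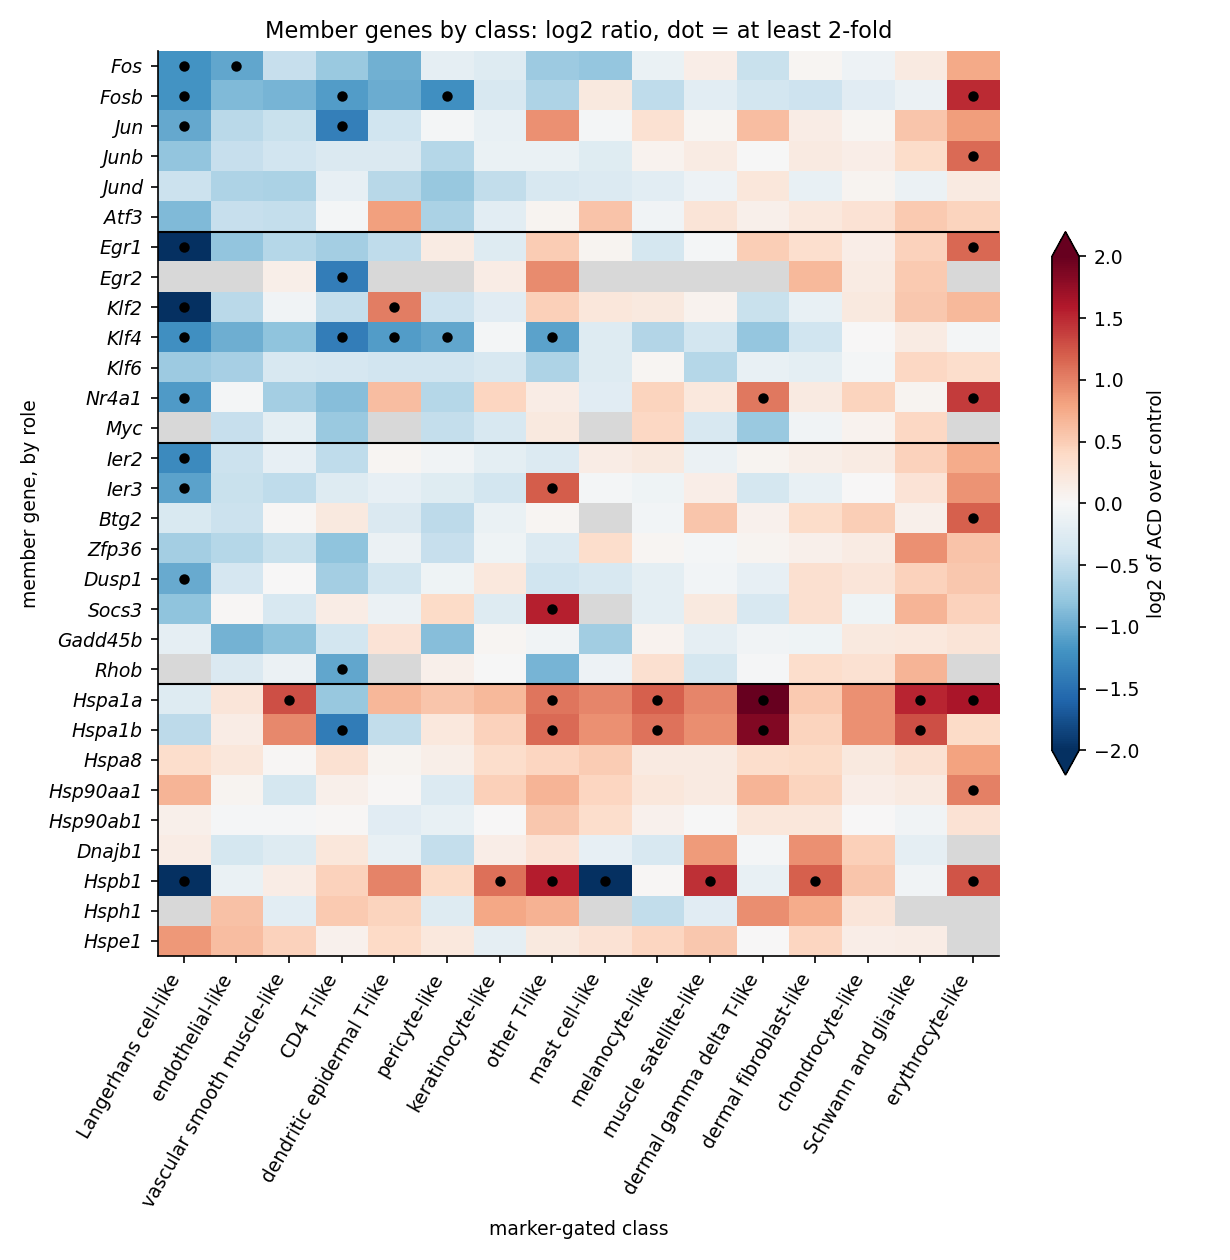
Log2 ratio of ACD over control of each member (rows, grouped by role from AP-1 subunits at the top to heat-shock proteins at the bottom) in each class (columns, ordered by the summed immediate-early ratio), where blue is lower and red higher in ACD, grey marks pairs with under 50 UMIs and dots mark calls of at least 2-fold. The 20 lower immediate-early calls lie in the columns at the left apart from *Klf4* in T-like cells of no gated subset, and the 16 higher heat-shock calls lie in the rows of *Hspa1a*, *Hspa1b*, *Hspb1* and *Hsp90aa1*.

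The AP-1 transcription factor is a dimer of Fos, Jun and ATF family proteins, and 6 members encode such subunits. *Fos* (ENSMUSG00000021250, chromosome 12, 85473890 to 85477273, plus strand of GRCm38), the classical immediate-early gene, was lower than control in 12 of 16 classes and called in 2. In endothelial-like cells it was at 5527 CPM in control and 2685 in ACD, where it had its highest control level (log2 ratio -1.04, -1.10 to -0.98), and in Langerhans-like cells at 2952 and 1294 (log2 ratio -1.19, -1.34 to -1.04). It was just short of 2-fold in dendritic epidermal T-like cells (3345 and 1712, log2 ratio -0.97, -1.08 to -0.85), and it did not follow that direction in dermal fibroblast-like (3025 and 3115, 0.04), muscle satellite-like (0.13), Schwann and glia-like (4888 and 5549, 0.18) or erythrocyte-like cells (0.75). The lowest ACD level was in CD4 T-like cells, at 363, and the highest in Schwann and glia-like cells.

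*Fosb*, a paralog of *Fos*, was lower than control in 14 of 16 classes, more than any other AP-1 member. It fell in pericyte-like cells from 1177 to 505 (log2 ratio -1.22, -1.37 to -1.07), in Langerhans-like cells from 1728 to 755 (log2 ratio -1.2, -1.39 to -1.0) and in CD4 T-like cells from 314 to 144 (log2 ratio -1.12, -1.49 to -0.73). It was higher in erythrocyte-like cells, at 71.2 and 199.7 (log2 ratio 1.49, 0.90 to 2.12), where 1 cell held 57.1% of the control UMIs. *Jun*, which pairs with Fos proteins, was split: 8 classes above and 8 below 0. It fell in CD4 T-like cells (672 and 261, log2 ratio -1.36, -1.62 to -1.10) and in Langerhans-like cells (1751 and 866, log2 ratio -1.02, -1.2 to -0.83), and its level was highest in endothelial-like cells of control (6036) and chondrocyte-like cells of ACD (4288). The CD4 T-like value rested largely on 1 control cell, which held 53.2% of the *Jun* UMIs, and without the richest cell of each library the ratio was -0.41. In T-like cells of no gated subset *Jun* lay on the other side, at 215 and 405 (log2 ratio 0.91, 0.74 to 1.09).

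*Junb*, an AP-1 subunit that is abundant in T cells, was called once, higher in erythrocyte-like cells (282 and 618, log2 ratio 1.13, 0.83 to 1.44), and otherwise ran from 3125 and 1813 in Langerhans-like cells (-0.79) to 2444 and 3167 in Schwann and glia-like cells (0.37). *Jund*, the most constitutively expressed Jun family gene, was called nowhere and was lower than control in 13 of 16 classes, most so in pericyte-like cells (3077 and 1823, -0.76), and above control in dermal gamma delta T-like cells (1095 and 1287, 0.23). *Atf3*, a stress-induced partner of Jun proteins, was also called nowhere, with its lowest ratio in Langerhans-like cells (1370.5 and 747, -0.88) and its highest in dendritic epidermal T-like cells (73.5 and 129.9, 0.82). Summed over the 6 subunits, AP-1 transcripts were at 23313 and 14748 in endothelial-like cells (log2 ratio -0.66, -0.69 to -0.63) and 12850.0 and 6897 in Langerhans-like cells (-0.90, -0.97 to -0.83), and the median ratio was below 0 in 10 of 16 classes.

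Among the other transcription factors, *Klf4* (ENSMUSG00000003032, chromosome 4, 55527143 to 55532466, minus strand) was called lower in 5 classes, more than any other member. *Klf4* encodes a zinc-finger factor of barrier formation in epidermis and of quiescence in endothelium. It fell in CD4 T-like cells (155 and 59.4 CPM, log2 ratio -1.38, -1.91 to -0.80), Langerhans-like cells (316 and 135, log2 ratio -1.22, -1.70 to -0.75) and dendritic epidermal T-like cells (1429 and 658, log2 ratio -1.12, -1.30 to -0.94). It also fell in T-like cells of no gated subset (267 and 127, log2 ratio -1.07, -1.26 to -0.87) and in pericyte-like cells (385 and 188, log2 ratio -1.04, -1.29 to -0.79). Endothelial-like cells, which had the highest level in both libraries, were at 2924 and 1489, just inside 2-fold (log2 ratio -0.97, -1.06 to -0.89). *Klf4* was above control in 2 classes, Schwann and glia-like (240.4 and 269.7, 0.17) and chondrocyte-like cells (942 and 946, 0.01).

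*Klf2*, which holds T cells and endothelium in a resting state, took both directions. It fell in Langerhans-like cells (215 and 44.5, log2 ratio -2.27, -3.02 to -1.56) and was higher in dendritic epidermal T-like cells, from a low level (70.8 and 144, log2 ratio 1.02, 0.39 to 1.70). Endothelial-like cells, with the highest control level, had 2799.6 and 1926 (-0.54). *Klf6*, another Krüppel-like factor, was called nowhere but lay below control in 13 of 16 classes, from 666 and 402 in Langerhans-like cells (-0.73) to 537 and 718 in Schwann and glia-like cells (0.42).

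*Egr1*, a growth factor-induced zinc-finger factor, fell in Langerhans-like cells from 505 to 109 (log2 ratio -2.21, -2.67 to -1.75). There 1 control cell held 53.7% of its UMIs, and without the richest cell of each library the ratio was -1.49. *Egr1* was higher in erythrocyte-like cells (109 and 243, log2 ratio 1.15, 0.67 to 1.67) and had its highest level in chondrocyte-like cells in both libraries (2232 and 2446, 0.13). *Egr2*, a factor needed for myelin formation, had its highest level in Schwann and glia-like cells in both libraries, at 201 and 287 (log2 ratio 0.52, 0.26 to 0.78). It could be compared in 7 classes and was called lower in CD4 T-like cells on 6 control UMIs, with an interval that included 0 (29.0 and 11.1, log2 ratio -1.39, -2.61 to 0.12).

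*Nr4a1* (ENSMUSG00000023034, chromosome 15, 101254269 to 101274795, plus strand), a nuclear receptor gene induced by T cell receptor signaling, was the only immediate-early member called in dermal gamma delta T-like cells. It was higher in dermal gamma delta T-like cells, at 312 CPM in control and 646 in ACD (log2 ratio 1.05, 0.85 to 1.25), and no single cell of either library held more than 4.58% of its UMIs there. It was also higher in erythrocyte-like cells (66.1 and 173, log2 ratio 1.39, 0.78 to 2.06) and fell in Langerhans-like cells (606 and 276, log2 ratio -1.13, -1.46 to -0.80). CD4 T-like cells lay on the lower side (512 and 284, -0.85) and dendritic epidermal T-like cells on the higher (158 and 243, 0.62). *Myc*, a growth regulator, was compared in 12 classes and called in none, with ratios from -0.75 in dermal gamma delta T-like cells (31.2 and 18.6) to 0.41 in melanocyte-like cells (61.0 and 81.3).

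The remaining 8 immediate-early members encode regulators that damp signaling or mRNA, and other short-lived products, and were called in few classes. *Ier3*, a survival gene induced by NF-kB, was higher in T-like cells of no gated subset (104 and 239, log2 ratio 1.21, 0.96 to 1.47) and fell in Langerhans-like cells (1246 and 595, log2 ratio -1.07, -1.29 to -0.84). *Socs3*, the inhibitor of cytokine receptor signaling through STAT3, was higher in T-like cells of no gated subset (44.2 and 129.6, log2 ratio 1.55, 1.17 to 1.95), with 781 and 1254 in Schwann and glia-like cells (0.68) and its highest level in endothelial-like cells (1275 and 1292, 0.02). *Ier2* fell in Langerhans-like cells (602 and 248, log2 ratio -1.28, -1.62 to -0.94), where 1 control cell held 51.2% of the UMIs and the ratio without the richest cells was -0.45. *Dusp1*, a phosphatase that switches off MAP kinases, fell there too (896 and 445, log2 ratio -1.01, -1.27 to -0.75), with 1620.0 and 2019 in dermal fibroblast-like cells (0.32).

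*Zfp36*, which encodes a protein that destabilizes cytokine mRNAs, was called in no class and had its widest differences in Schwann and glia-like cells (732 and 1387, 0.92) and CD4 T-like cells (464 and 265, -0.81). *Gadd45b*, a stress gene upstream of p38, was likewise not called, but was low in endothelial-like, pericyte-like and vascular smooth muscle-like cells. It was at 2557 and 1325 in endothelial-like cells (log2 ratio -0.95, -1.04 to -0.86), 3683 and 2037 in pericyte-like cells (log2 ratio -0.85, -0.93 to -0.78) and 4239 and 2401 in vascular smooth muscle-like cells (log2 ratio -0.82, -0.87 to -0.77), the highest level of the gene in both libraries. *Btg2*, an antiproliferative gene, was called in erythrocyte-like cells only (58.5 and 134, log2 ratio 1.19, 0.53 to 1.91). *Rhob*, a small GTPase gene, was called lower in CD4 T-like cells on 8 control UMIs with an interval that included 0 (38.7 and 18.8, log2 ratio -1.04, -2.08 to 0.22). Among all 8 genes the median ratio over classes lay between -0.15 and 0.04.

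The heat-inducible Hsp70 genes *Hspa1a* (ENSMUSG00000091971, chromosome 17, 34969190 to 34972156, minus strand) and *Hspa1b* (ENSMUSG00000090877, chromosome 17, 34956436 to 34959238, minus strand) carried 10 of the 16 higher heat-shock calls. These neighbors are near-identical copies, so how reads were split between them is uncertain and their sum is given first. The sum was 230.1 and 941 CPM in dermal gamma delta T-like cells (log2 ratio 2.03, 1.81 to 2.26), 711 and 1909 in Schwann and glia-like cells (1.42, 1.30 to 1.55) and 828 and 1844 in vascular smooth muscle-like cells (1.16, 1.08 to 1.24). It was 551 and 1216 in melanocyte-like cells (1.14, 1.01 to 1.28), 369 and 791 in T-like cells of no gated subset (1.10, 0.97 to 1.23) and 186 and 389 in erythrocyte-like cells (1.07, 0.70 to 1.46), all at least 2-fold higher. Muscle satellite-like cells, with the highest level in ACD, had 3253 and 6320.3 (0.96, 0.85 to 1.06), and chondrocyte-like cells 1122 and 2107 (0.91, 0.89 to 0.93). The ratios of *Hspa1a* and *Hspa1b* had the same sign in 15 of 16 classes, the exception being dendritic epidermal T-like cells (*Hspa1a* 351 and 558, 0.67 and *Hspa1b* 896 and 639, -0.49). Because the split of reads is uncertain, these ratios are not independent. Their promoter stretches printed above share the same heat-shock pair, and its part in the ratios was not tested.

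The Hsp70 pair was lower than control in CD4 T-like cells (1981 and 955, -1.05, -1.2 to -0.90) and Langerhans-like cells (4853 and 3812, -0.35, -0.45 to -0.25). The CD4 T-like value rested on 1 cell, which held 76.2% of the 210 control UMIs of *Hspa1b* (1015 and 386, log2 ratio -1.39, -1.60 to -1.18), and without the richest cell of each library the *Hspa1b* ratio was 0.58. In dermal gamma delta T-like cells, 1 control cell held 50% of the 90 *Hspa1a* UMIs (117 and 535, log2 ratio 2.19, 1.88 to 2.52), and there the ratio without the richest cells was higher, at 2.88. In endothelial-like and pericyte-like cells, where these genes were abundant already in control, the sums were 3964 and 4525 (0.19) and 3533 and 4693 (0.41).

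*Hspb1* (ENSMUSG00000004951, chromosome 5, 135887919 to 135889563, plus strand), the small heat-shock protein that protects actin filaments and is abundant in differentiating epidermis, was called in 7 classes, in both directions. It was higher in keratinocyte-like cells, at 740.3 CPM in control and 1586 in ACD (log2 ratio 1.10, 1.01 to 1.19), in dermal fibroblast-like cells (230.4 and 527, log2 ratio 1.19, 1.14 to 1.25) and in muscle satellite-like cells (694 and 1921, log2 ratio 1.47, 1.25 to 1.69). The highest level in both libraries was in chondrocyte-like cells (1787 and 2612, log2 ratio 0.55, 0.53 to 0.56). It was also higher in erythrocyte-like cells (119 and 285, log2 ratio 1.25, 0.79 to 1.74) and in T-like cells of no gated subset (42.8 and 127, log2 ratio 1.57, 1.19 to 1.98), where 1 ACD cell held 39.2% of the UMIs and the ratio without the richest cells was 0.95. *Hspb1* fell in Langerhans-like cells on 67 and 13 UMIs (252 and 24.1, log2 ratio -3.39, -4.37 to -2.52) and in mast cell-like cells on 49 and 24 UMIs (367 and 77.0, log2 ratio -2.25, -3.02 to -1.52). In both of these classes markers of chondrocytes, the cells richest in *Hspb1*, were more abundant in control, at 926 and 195 CPM in Langerhans-like and 1137 and 347 in mast cell-like cells over 11 markers, and their part in the *Hspb1* values was not tested.

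The constitutive chaperones differed less. *Hspa8*, the housekeeping Hsp70, was above control in 16 of 16 classes and called in none. Its ratios ran from 0.03 in vascular smooth muscle-like cells (2616 and 2667) to 0.81 in erythrocyte-like cells (193 and 338), with 1695 and 2216 in dermal fibroblast-like cells (log2 ratio 0.39, 0.37 to 0.41). *Hsp90aa1*, the inducible Hsp90, was at 452 and 727 in dermal gamma delta T-like (log2 ratio 0.68, 0.52 to 0.85) and 798 and 1272 in Langerhans-like cells (log2 ratio 0.67, 0.45 to 0.90), was lower than control in vascular smooth muscle-like (746 and 588, -0.34) and pericyte-like cells (671 and 555, -0.27), and was called in erythrocyte-like cells only (68.6 and 139, log2 ratio 1.01, 0.40 to 1.68). *Hsp90ab1*, the constitutive Hsp90, was split, with 10 classes above and 6 below 0, from -0.22 in dendritic epidermal T-like cells (4535 and 3889) to 0.54 in T-like cells of no gated subset (1804 and 2615).

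The cochaperones and the mitochondrial cochaperonin were called in no class. *Dnajb1*, the Hsp40 partner of Hsp70, ran from 530.1 and 381 in pericyte-like cells (log2 ratio -0.48, -0.66 to -0.29) to 143 and 271 in dermal fibroblast-like cells (log2 ratio 0.92, 0.85 to 0.99). *Hsph1*, an Hsp110 that exchanges the nucleotide of Hsp70, was compared in 12 classes, with 41.2 and 68.6 in dermal fibroblast-like cells (log2 ratio 0.73, 0.60 to 0.87) and 33.8 and 64.2 in dermal gamma delta T-like cells (log2 ratio 0.93, 0.33 to 1.58). *Hspe1*, the Hsp10 of mitochondria, was above control in 14 of 15 classes, most so in Langerhans-like cells (173 and 317, log2 ratio 0.87, 0.40 to 1.37), and below it in keratinocyte-like cells (511 and 453, -0.17).

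**Figure D4:**
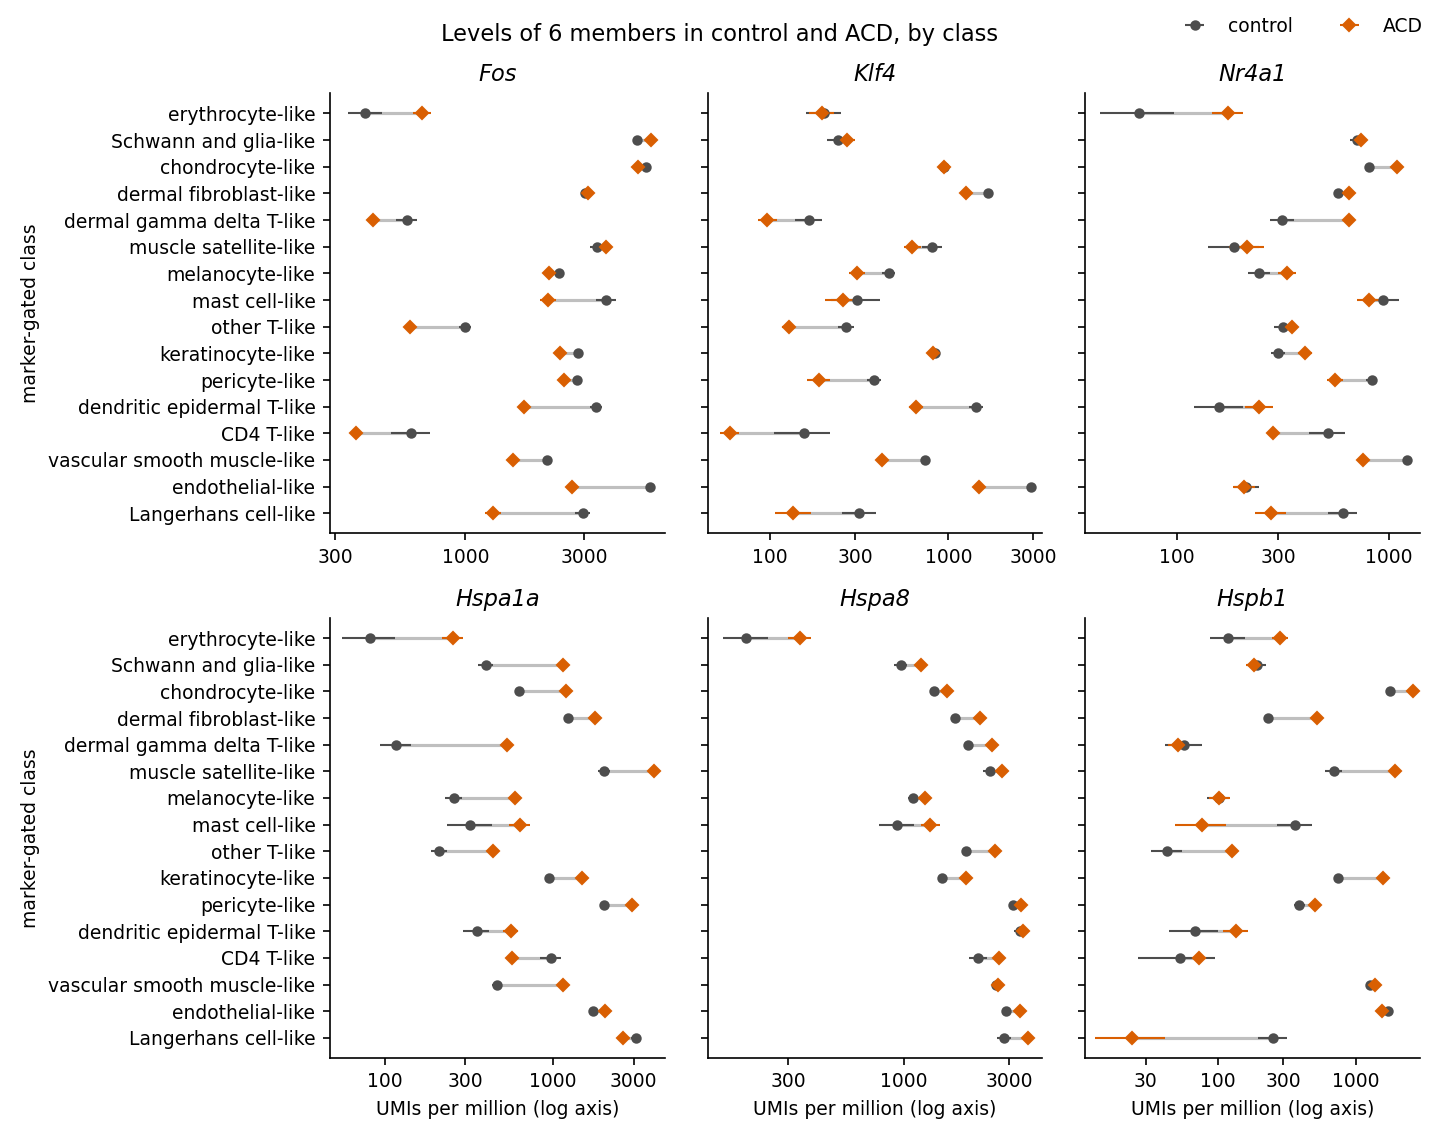
Level in CPM (x axis, log scale) of *Fos*, *Klf4*, *Nr4a1*, *Hspa1a*, *Hspa8* and *Hspb1* in each class (y axis) in control (circles) and ACD (diamonds), with 95% counting intervals as bars. *Fos* in endothelial-like cells moves from 5527 to 2685, *Nr4a1* in dermal gamma delta T-like cells from 312 to 646, and all 16 *Hspa8* diamonds lie to the right of their circles.

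Several of the classes with many calls were small or changed in other ways. Langerhans-like cells numbered 34 and 38, and in control they held more chondrocyte and fibroblast transcripts. Their 8 dermal fibroblast markers summed to 233 and 13.0 CPM, with 8 and 2 markers detected, and of their 11 chondrocyte markers 9 were detected in each library and *Fibin* in neither. T cell markers went the other way (113 and 499), and keratinocyte markers were low in both (26.4 and 44.5), with *Krt15* and *Krt1* at 0. CD4 T-like cells numbered 35 and 627, and their chondrocyte markers summed to 643 and 204, with 10 and 11 of 11 detected and none at 0 in both libraries. In endothelial-like cells the chondrocyte markers were at 379.9 and 336, and in dendritic epidermal T-like cells at 318 and 323, while dermal fibroblast markers were at 179.6 and 101 in endothelial-like and 114 and 39.7 in dendritic epidermal T-like cells. The genes that led endothelial-like cells over the other classes were *Ccl21a*, *Cldn5*, *Mmrn1*, *Lyve1* and *Egfl7*. Chondrocyte markers were also lower in ACD in vascular smooth muscle-like (646 and 253), pericyte-like (301 and 133) and keratinocyte-like cells (420.2 and 113). Erythrocyte-like cells, 29 control and 58 ACD cells, are not nucleated when mature, and their chondrocyte markers were at 1233 and 1315, their dermal fibroblast markers at 722 and 129.8 and their keratinocyte markers at 20.3 and 321. The part of these transcripts in the member levels of each of these classes was not tested.

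Cells were deeper in ACD in several classes, for example 5235 and 10036 median UMIs in endothelial-like cells, so each cell was thinned to 2000 UMIs to see how member transcripts were spread over cells. The median endothelial-like cell then held 80 (10th to 90th percentile 20.2 to 193) in control and 52 (15.4 to 114) in ACD, and the median without thinning, scaled to 2000 UMIs, was 77.8 and 51.1. Here the 10th percentile, the median and the 90th percentile were all lower in ACD. In vascular smooth muscle-like cells the values were 49 (10th to 90th percentile 24 to 84.1) in control and 34 (15 to 56.4) in ACD (unthinned 49.9 and 34.3), and in dendritic epidermal T-like cells 36 (10th to 90th percentile 23 to 58.2) in control and 28 (11 to 54.3) in ACD (35.0 and 28.4). In Langerhans-like cells the upper end differed most, with 32 (10th to 90th percentile 18 to 74.6) in control and 25 (12.7 to 38.3) in ACD (34.1 and 23.5). Pericyte-like cells had 51 (10th to 90th percentile 27.6 to 85) in control and 39 (8.90 to 76.3) in ACD (50.5 and 38.2), and CD4 T-like cells 16.5 (10th to 90th percentile 8 to 32.5) in control and 12 (6 to 24) in ACD (17.7 and 12.2). In chondrocyte-like cells the median stayed at 63 and 62 while the 90th percentile was 140 and 164. In erythrocyte-like cells the median was 1 in both libraries and the 90th percentile 20.2 and 34.1. The tenth of erythrocyte-like cells richest in immediate-early UMIs held 58.1% of them in control and 68.1% in ACD. The median erythrocyte-like cell had 0 heat-shock UMIs in both libraries. The number of cells under 2000 UMIs left out was 12 and 0 in endothelial-like, 65 and 27 in Schwann and glia-like and 70 and 81 in mast cell-like cells.

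The tenth of cells richest in the Hsp70 pair held a larger share of its UMIs than the tenth richest in immediate-early UMIs held of those, except in muscle satellite-like cells of ACD (33.8% and 34.4%). The pair had few UMIs per cell, and how far its sparse counts alone set these shares was not tested. The share of the pair reached 95.7% in CD4 T-like cells of control, and that of the immediate-early genes ran from 19.7% (dendritic epidermal T-like cells, control) to 68.1% (erythrocyte-like cells, ACD). In dermal gamma delta T-like cells the median cell had 0 UMIs of the pair in both libraries and the 90th percentile was 1 and 3, so most cells of both libraries had none at this depth. In muscle satellite-like cells, by contrast, the median itself was 4 and 9, and in dermal fibroblast-like cells 3 and 4.

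Across cells, immediate-early and heat-shock UMIs went together to different extents. Spearman's correlation of the thinned sums was 0.51 over 133 control and 0.70 over 115 ACD endothelial-like cells, and 0.52 and 0.52 over 155 and 105 keratinocyte-like cells. It was 0.19 and 0.15 over 3776 and 2529 chondrocyte-like cells. Dendritic epidermal T-like cells had 0.08 over 98 cells and 0.56 over 128. These are descriptions of cells that share a library and a digestion, given without a test.

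**Figure D5:**
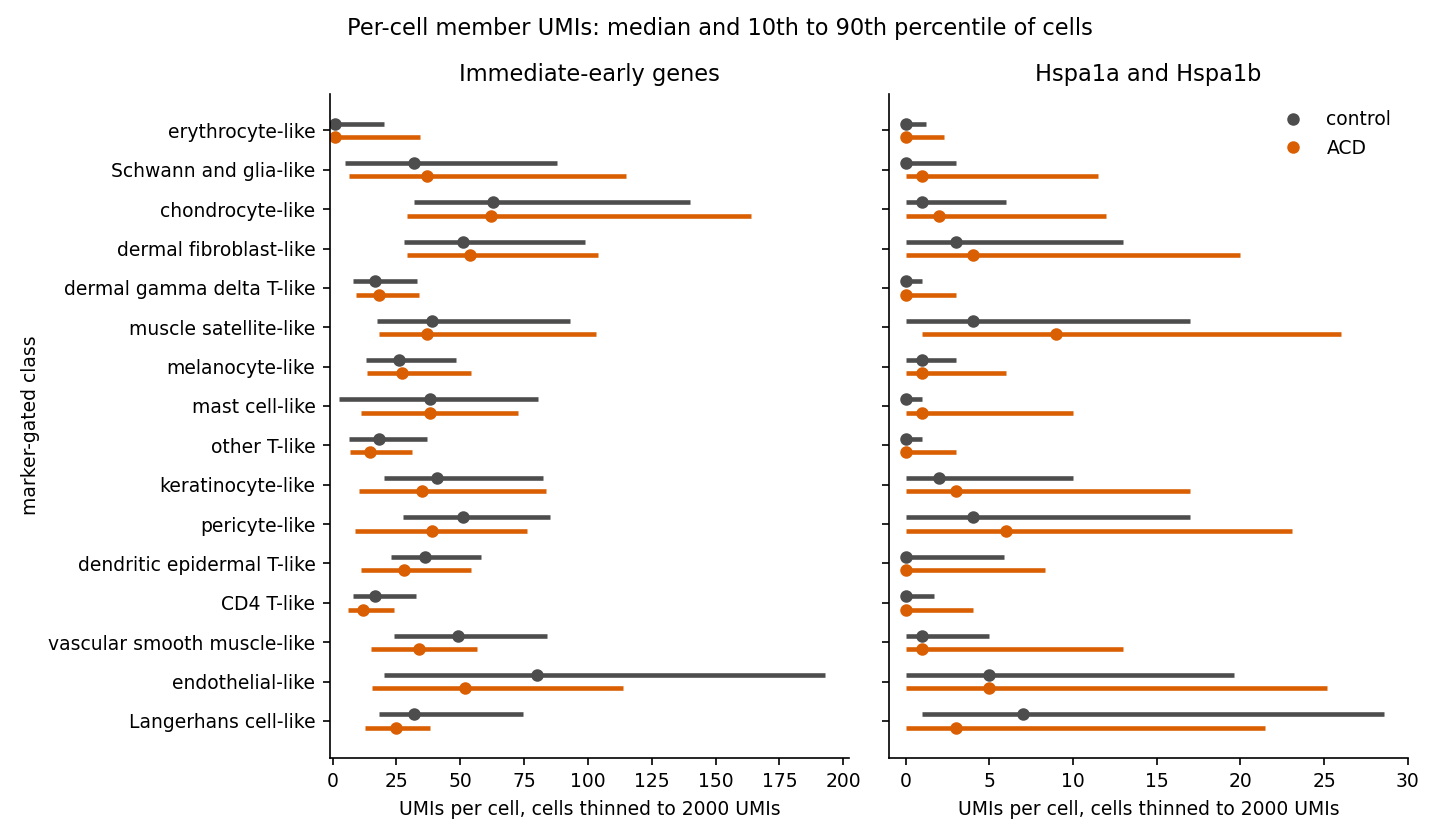
UMIs of the 21 immediate-early genes (left) and of *Hspa1a* and *Hspa1b* (right) per cell thinned to 2000 UMIs (x axis) in each class (y axis), in control (grey) and ACD (orange). Points are medians and bars run from the 10th to the 90th percentile of cells, with endothelial-like medians of 80 and 52 immediate-early UMIs.

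Of 33 further immediate-early and stress-response genes, 21 of 437 pairs were at least 2-fold higher (4.81%) and 22 at least 2-fold lower (5.03%), against 3.30% and 2.19% of pairs over all genes tested, with a median of -0.10. Those called in the same direction in at least 3 classes were *Maff*, a small Maf factor (4 classes lower), the nuclear receptor gene *Nr4a2* (3 lower and 2 higher), *Klf9* (3 lower), *Ctgf*, a target of YAP (3 lower and 2 higher), the interferon-induced factor *Irf1* (4 higher and 1 lower), the phosphatase *Dusp2* (4 higher) and *Bhlhe40* (3 higher), which is 1 gene more than the naming rule allows and was kept because it met the same limit. *Irf1* was at 58.5 and 217 CPM in dermal gamma delta T-like cells (log2 ratio 1.89) and 311 and 677 in Schwann and glia-like cells (1.12). *Dusp2* was at 27.2 and 227 in dendritic epidermal T-like cells (3.06), while *Maff* was there at 422 and 191 (-1.14) and in vascular smooth muscle-like cells at 179 and 71.6 (-1.32). *Klf9*, a glucocorticoid-responsive factor, was at 187 and 76.1 in dermal gamma delta T-like cells (-1.30). Of 27 further chaperone genes, 5 of 349 pairs were higher (1.43%) and 1 lower (0.287%), against the same 3.30% and 2.19%, the median was 0.01, and none was called in 3 classes.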

How the data were processed

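The authors made droplet libraries of control and ACD ear skin, ran Cell Ranger (version 3.0.2 in the methods, 3.1.0 in the processing notes) against mm10, and deposited raw UMI counts per gene and barcode, which are the values used here. Kept barcodes had over 200 but fewer than 5000 genes detected, no more than 25000 UMIs, and a mitochondrial share below 8%, the UMI limit being read as an upper one although the methods print it as a lower one. A cell entered the class with the highest mean marker score if at least 2 markers were detected and the score reached 0.2, and was mixed if an unrelated class scored over 0.5 of that. These gate limits were set after seeing the data. Mixed cells were left out as possible doublets, and no doublet caller was used except Scrublet (scanpy 1.11.5) as an alternative, which called 560 control and 392 ACD cells. Counts were summed per class and library in Python 3.11.15 (numpy 2.4.6, scipy 1.17.1), and 95% intervals were exact Poisson for levels and exact conditional binomial for ratios, both for counting error only. Where a count was 0 the ratio would use a floor of 3 UMIs. The code of the comparison was run on counts simulated from the pooled profile of a class with changes of known size. Those counts had no uneven cells, foreign transcripts or spread between animals, so the run is no check of the calls themselves. All 30 members are described, with levels where a member was called, highest, lowest or split in direction, and other pathway genes are named where called in at least 3 classes. The members and lists were chosen with earlier results of these data known. The marker gene *Cnmd* and the list gene *Cebpd* had no row under these symbols, positions are from GENCODE M21, and promoter stretches are from RefSeq (GRCm38.p6). Alternatives were the cell filter, the gate, doublet removal, the mean over cells, thinning, centring, the denominator, a pseudocount, the UMI, cell and fold limits, and 3 added after seeing the data.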

Additional observations from a re-analysis of the deposited data

Results flagged for a closer look

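Of the members, 7 were at least 2-fold higher in ACD in some class and at least 2-fold lower in another, with counting intervals on either side of 0. The difference between classes was not tested, since each class has 1 library per condition, and the most extreme class in each direction is given. *Fosb* had a log2 ratio of 1.49 in erythrocyte-like and -1.22 in pericyte-like cells. *Egr1* had 1.15 in erythrocyte-like and -2.21 in Langerhans-like cells, and *Nr4a1* 1.39 and -1.13 in the same classes. *Ier3* had 1.21 in T-like cells of no gated subset and -1.07 in Langerhans-like cells. *Klf2* had 1.02 in dendritic epidermal T-like and -2.27 in Langerhans-like cells. Among heat-shock genes, *Hspa1b* had 1.84 in dermal gamma delta T-like and -1.39 in CD4 T-like cells, the latter resting on 1 control cell with 76.2% of the UMIs. *Hspb1* had 1.57 in T-like cells of no gated subset and -3.39 in Langerhans-like cells, where the control cells also held more chondrocyte marker transcripts (926 and 195 CPM), whose part was not tested.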

How the results depend on the processing

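The counts to compare with are 9 immediate-early pairs higher and 20 lower, 16 heat-shock pairs higher and 3 lower, 48 pairs in all, 12 of 16 classes with an immediate-early median below 0 and 0 with a heat-shock median below 0. Shares over all genes are not given for the alternatives, so their counts show how the calls moved and not an excess over all genes. With all deposited barcodes, 27 immediate-early pairs were higher and 73 pairs were called. With at least 500 genes and under 5% mitochondrial UMIs, 1 immediate-early pair was higher and 1 class had a heat-shock median below 0, as did 1 class with Scrublet calls removed. With cells thinned to 2000 UMIs, 5 immediate-early pairs were higher and 11 lower, and 1 heat-shock pair was lower. With at least 50 cells in each library, which leaves out Langerhans-like, CD4 T-like and erythrocyte-like cells, the numbers were 4 and 5, 1 heat-shock pair lower and 23 pairs in all. At 1.5-fold they were 23 and 56, 39 heat-shock pairs higher and 122 in all. In 3 alternatives chosen after seeing the data, leaving out erythrocyte-like cells gave 4 immediate-early pairs higher, leaving out the cell richest in each gene gave 15 immediate-early pairs higher and 1 heat-shock pair lower and turned *Hspa1b* in CD4 T-like cells from -1.39 to 0.58, and leaving out T-like cells of no gated subset moved no count by over 1.5 times. That *Hspa1b* value was the only called pair of 48 whose sign changed in an alternative. Of the 16 summed immediate-early ratios 4 changed sign, all with values near 0 (dermal fibroblast-like, melanocyte-like, muscle satellite-like and dermal gamma delta T-like cells), and of the 16 heat-shock ratios 3 did (Langerhans-like, CD4 T-like and dendritic epidermal T-like cells). The mean over cells, the denominator without mitochondrial, ribosomal and hemoglobin genes, centring on the median of all genes, 3 markers per gate, 20 UMIs and an added 10 CPM moved no count by over 1.5 times. The ratios themselves were less steady. Centring moved 22 summed ratios out of their counting intervals and left 10 within. The changed denominator moved 17 and left 15, and so did the mean over cells. The mean over cells also moved 11 called pairs and left 37. No paired analysis was possible because each group has 1 library. Small classes limit the depth: CD4 T-like cells had 206940 control UMIs and Langerhans-like cells 265604, and a count of 0 there allows up to 3 UMIs.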

Other observations

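In 8 classes fewer than 20 cells were present in control, and their levels are given as values only, control first. Regulatory T-like cells (18 control and 328 ACD cells) had summed immediate-early levels of 17108 and 7593 CPM and heat-shock levels of 6218 and 7662, and CD8 T-like cells (10 control and 584 ACD) 7258 and 5931 immediate-early and 5498 and 7030.3 heat-shock CPM. NK and ILC1-like cells (4 control and 420 ACD) had 11890.4 and 9139.8 immediate-early and 4409 and 8216 heat-shock CPM, and ILC2-like cells (13 control and 17 ACD) 15179.9 and 12493 immediate-early and 4471 and 6767 heat-shock CPM. Among myeloid cells, basophil-like cells (7 control and 218 ACD) had 26927 and 30407 immediate-early and 4343 and 10634 heat-shock CPM, neutrophil-like cells (3 control and 64 ACD) 28600.1 and 27375 immediate-early and 1839.8 and 3265 heat-shock CPM, macrophage-like cells (18 control and 41 ACD) 10686 and 10293 immediate-early and 4038 and 5907 heat-shock CPM, and dendritic cell-like cells (16 control and 78 ACD) 8843 and 9241 immediate-early and 5495 and 9211 heat-shock CPM. In ACD, where these classes were larger, basophil-like and neutrophil-like cells had the highest immediate-early sums among them and CD8 T-like cells the lowest. *Ier3* in ACD was at 7013 in basophil-like and 1355 in neutrophil-like cells, against 163 in CD8 T-like cells.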
